A study of Mus musculus with 21 samples.

Results

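Glucuronidation and sulfation are the main conjugation reactions of the body, and the genes described here encode enzymes of both. They are 10 mouse genes, namely the UDP-glucuronosyltransferases Ugt1a1, Ugt1a6a, Ugt1a7c, Ugt2b34, Ugt2b35 and Ugt2b5 and the cytosolic sulfotransferases Sult1a1, Sult1b1, Sult1c2 and Sult1d1. They were taken by name, with earlier results of these data known. The table of raw RNA-seq counts that holds them has 25361 genes. It comes from mouse cecum, a blind sac where the small bowel joins the large. All 10 were listed, 8 passed the filter on low counts, and Ugt1a1 and Ugt1a6a had a count of 0 in all 21 libraries. The table lists them by Ensembl identifier: Ugt1a1 is ENSMUSG00000089960, Ugt1a6a is ENSMUSG00000054545, Ugt1a7c is ENSMUSG00000090124, Ugt2b34 is ENSMUSG00000029260, Ugt2b35 is ENSMUSG00000035811, Ugt2b5 is ENSMUSG00000054630, Sult1a1 is ENSMUSG00000030711, Sult1b1 is ENSMUSG00000029269, Sult1c2 is ENSMUSG00000023122 and Sult1d1 is ENSMUSG00000029273.

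The mice were C57BL/6, a common inbred strain. From 3 weeks of age all of them ate a Total Western Diet, a rodent feed modelled on nutrient intakes in the United States, for 6 weeks. For 3 more weeks they ate the same diet with broccoli powder at 0.5%, 1.0% or 2.5% (5 mice each) or with none (0%, 6 mice), so every group, the controls included, is a Western-diet group. The comparison asks how the cecum responds to broccoli in such a diet. Broccoli contains glucosinolates, whose breakdown products include activators of NRF2 and ligands of the aryl hydrocarbon receptor.

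UDP-glucuronosyltransferases sit in the membrane of the endoplasmic reticulum and move glucuronic acid from UDP-glucuronic acid onto phenols, steroids, bilirubin and drugs. Sulfotransferases of the SULT1 family work in the cytosol and move a sulfate group from PAPS onto phenols, amines and hormones. Both reactions make a compound more soluble in water, and in the gut epithelium they act on compounds taken up from food and from gut microbes before transporters carry the conjugates out of the cell. In other tissues and cell lines many of these genes are known targets of the aryl hydrocarbon receptor, NRF2 or the nuclear receptors PXR and CAR.

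The UGT1A genes are built in an unusual way, which bears on what could be counted. Each of the 9 listed UGT1A genes has its own promoter and its own start exon on chromosome 1, and all of them are spliced to the same set of downstream exons, the first of which lies at chr1:88215044-88215175 on the plus strand of GRCm38 (mm10). The start exon encodes the part that recognises the substrate, and the shared exons encode the part that binds UDP-glucuronic acid. The join is shown for the 3 members, with 30 bases of the start exon in lower case and the first 30 bases of the shared exons in capitals.
Ugt1a1: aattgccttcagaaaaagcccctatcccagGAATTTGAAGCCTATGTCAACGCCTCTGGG
Ugt1a6a: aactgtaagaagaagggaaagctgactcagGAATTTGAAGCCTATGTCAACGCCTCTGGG
Ugt1a7c: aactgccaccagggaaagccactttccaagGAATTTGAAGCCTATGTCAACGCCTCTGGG
The capitals were the same in all 3, and the transcripts stayed identical for 1311 bases from the start of the shared exons. The part from the join to the 3′ end made up 58.9% of the Ugt1a1 transcript, 57.1% of the Ugt1a6a transcript and 71.7% of the Ugt1a7c transcript that were compared. The Ugt1a7c transcript (3231 bases, 915 of them before the join) runs on past the 1311 identical bases, so its 71.7% is not all shared. A read that falls in the identical bases carries no letter that tells which start exon it came from.

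The deposited counts followed the layout of the gene spans. The span of Ugt1a1 (chr1:88211959-88218997) and that of Ugt1a6a (chr1:88134809-88218997) lie wholly inside the spans of other listed UGT1A genes, and no base of their exons, 2224 and 4312 bases, lies outside them. Ugt1a7c (chr1:88095062-88220002) reaches past the others at its 3′ end, where 998 bases of its last exon, chr1:88219005-88220002, belong to no other listed gene. It had 3743 counts over the 21 libraries, between 73 and 308 in each. Of the 6 other UGT1A genes, Ugt1a10 had 2 counts in all, although its start exon gives it 949 free bases at its 5′ end, and the other 5 had 0.

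**Figure D1:**
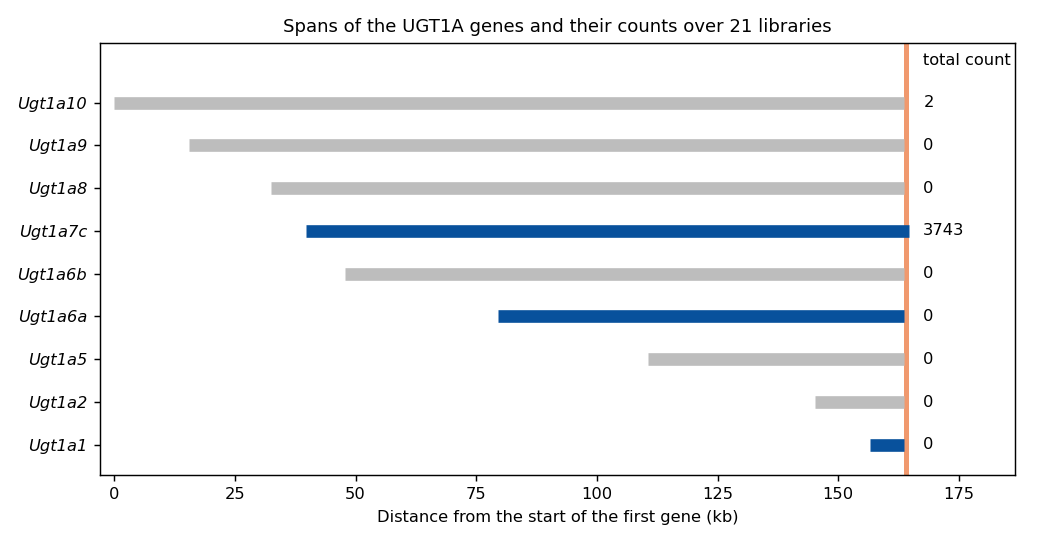
Spans of the 9 UGT1A genes in kb from the start of Ugt1a10, with the members in blue, the others in grey and the count summed over 21 libraries beside each. The orange band marks the 998 bases that belong to Ugt1a7c alone, and Ugt1a7c, with 3743 counts, is the gene that reaches into it.

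The same layout was seen across the table. Of the 1843 genes whose span lies inside a listed gene on the same strand, 1838 (99.7%) had a count of 0 in all libraries, and so did 772 of the 774 that lie inside a gene on the opposite strand only. Of the 17915 genes whose span touches no other listed gene, 3055 (17.1%) had a count of 0. Among genes with a partial overlap but 500 or more exonic bases left free, 53 of 4199 (1.26%) had a count of 0. The rule used for counting is not given in the sources used here.

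The level of Ugt1a1 and Ugt1a6a therefore cannot be read from these counts. A count of 0 would by itself allow up to 3 counts, which is 0.0475 to 0.0992 CPM (counts scaled by library total and TMM factor) depending on the library, but their listed 0 is no measure of their transcripts. By this layout the Ugt1a7c counts would be reads of the far 3′ end of the locus, but the positions of the reads were not seen. For reads of that end, which start exon the transcripts began with cannot be told apart.

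**Figure D2:**
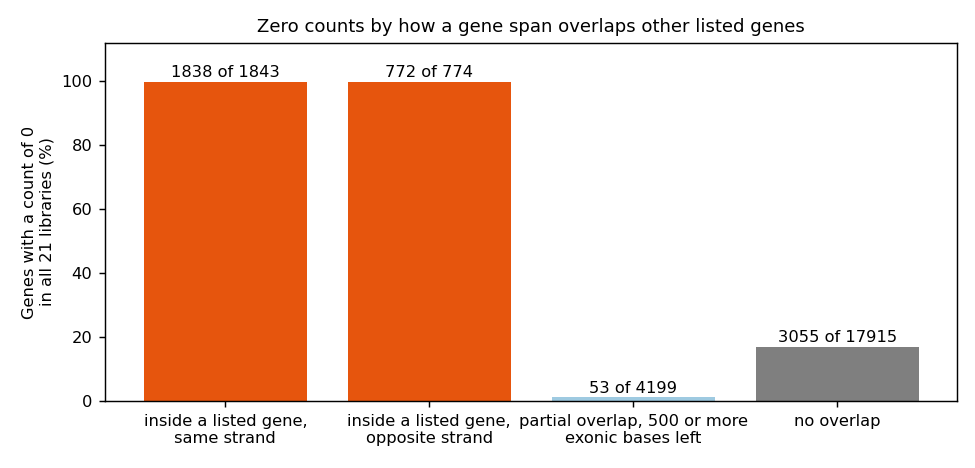
Share of genes (%) with a count of 0 in all 21 libraries, by how the span of the gene overlaps other listed genes; the numbers above the bars give the genes at 0 and the genes in the class. The share is 99.7% for genes inside another gene on either strand and 17.1% for genes with no overlap.

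The other 7 members had nearly all of their exons free of other listed genes. Ugt2b34 (chr5:86889767-86906937), Ugt2b35 (chr5:87000860-87013275), Ugt2b5 (chr5:87124960-87140318), Sult1b1 (chr5:87513339-87538195) and Sult1d1 (chr5:87554645-87569027) lie close together on chromosome 5, Sult1c2 (chr17:53829637-53846339) on chromosome 17 and Sult1a1 (chr7:126672865-126676432) on chromosome 7. Sult1a1 overlaps Sgf29, a gene on the opposite strand, and kept 96.0% of its exonic bases outside it. Likeness of sequence is a further limit for Ugt2b5, since 41.7% of the 50-base words in its transcripts also occur in Ugt2b36, Ugt2b37 or Ugt2b38. Ugt2b37 and Ugt2b38 had 1 and 3 counts in all, against 35048 for Ugt2b5. They had 18.3% and 37.4% of their own words in other genes, so how reads were placed between them and Ugt2b5 is uncertain. Ugt2b36, with 3831 counts, had 0.285% of its words in other genes, so little of the likeness lies with it. The share of such words was 6.59% for Sult1a1, 1.44% for Ugt2b34, 0.723% for Sult1c2 and 0.303% for Ugt2b35, and Sult1b1 and Sult1d1 shared none.

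Library totals ran from 28514263 to 58594569 counts, and the 10 genes together took 0.129% to 0.201% of them. The labelled tissue held markers of large bowel and of epithelium, and Car1, an anhydrase of the colon and cecum, stood between 2868 and 5790 CPM. A list of 12 small intestine markers, 11 of them tested, had a mean log2 CPM above 2.5 in 6 libraries, namely 5.30 in 0% replicate 5, 3.75 and 4.16 in 0.5% replicates 1 and 4, 5.86 in 1.0% replicate 1, and 3.74 and 3.68 in 2.5% replicates 1 and 2. In the other 15 libraries it lay at 2.39 or lower, and the 6 are called marker-high here. The summed CPM of the list ranged from 534 to 1600 at 0%, from 634 to 898 at 0.5%, from 591 to 1953 at 1.0% and from 659 to 982 at 2.5%. Its defining ileal marker Fabp6 was at 63.3 CPM in 0% replicate 5 and at 71.7 CPM in 1.0% replicate 1. The Paneth cell defensin Defa24 was at 13.3 and 47.3 CPM in the same libraries. It was at 0 in some libraries of every diet, 2.5% replicates 3, 4 and 5 among them. In bulk tissue, fewer cells of a type and less RNA per cell cannot be told apart.

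Levels between genes were compared per length, as CPM per kb of exon outside other gene spans, over all 21 libraries. Sult1a1, the main phenol sulfotransferase, was highest with a mean of 230, followed by Sult1d1, known in mice for sulfating dopamine and other catechols, with 197 and by Ugt2b34 with 185 CPM per kb. Their ranges overlapped, at 123 to 292, 122 to 242 and 138 to 215. All 3 were measured in the same libraries, so overlapping ranges do not show equal levels, and the order of these 3 was not tested. Sult1b1, which sulfates thyroid hormones and small phenols, averaged 30.1 and Ugt2b5 22.3 CPM per kb, again with overlapping ranges (22.7 to 35.1 and 14.2 to 28.2). Sult1c2 averaged 10.1, Ugt2b35 6.28 and Ugt1a7c 4.42 CPM per kb, and each range overlapped that of its neighbour. No library of the first 3 genes came as low as any library of Sult1b1, and no library of Ugt2b5 came as low as any of Sult1c2.

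**Figure D3:**
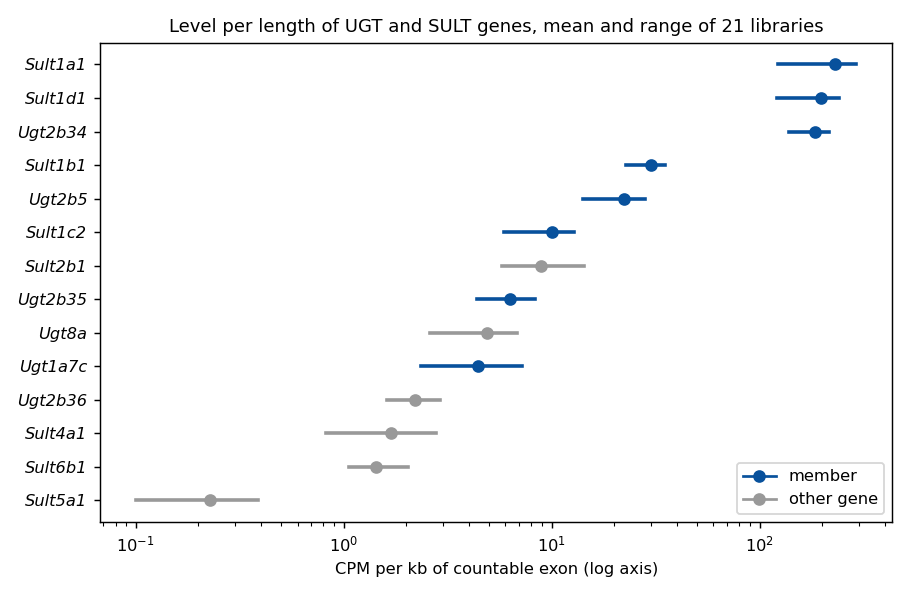
Level of the 8 counted members (blue) and of the 6 other UGT and SULT genes whose mean reached 1 CPM (grey) in CPM per kb of exon outside other gene spans, on a log axis; points are means of 21 libraries and lines run from the lowest to the highest library. Sult1a1, Sult1d1 and Ugt2b34 stand together between 122 and 292, and the next member, Sult1b1, does not exceed 35.1.

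Of 22 listed UGT genes 7 passed the filter, and of 21 listed SULT genes 8 did. The 2 shares are not alike. Ugt1a1, Ugt1a2, Ugt1a5, Ugt1a6a, Ugt1a6b, Ugt1a8, Ugt1a9 and Ugt2a2 have no exonic base outside the spans of other listed genes, and Ugt2a1 has 30. That they did not pass is no measure of their level. The other genes of both families whose mean reached 1 CPM were Sult2b1 (26.9 CPM), a cholesterol sulfotransferase, Ugt8a (22.1), which makes galactosylceramide, Ugt2b36 (4.54), Sult4a1 (4.25), Sult6b1 (3.06) and Sult5a1 (1.00). The estrogen sulfotransferase Sult1e1 had 15 counts in all and Ugt2b1 235. Per length Sult2b1 stood at 8.92 CPM per kb, between Sult1c2 and Ugt2b35, and the rest stood lower than Ugt2b35.

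Diets were compared gene by gene by edgeR's quasi-likelihood test on the 21 libraries together. A gene was called where its p, adjusted after Benjamini and Hochberg over 15652 genes, was under 0.05. None of the 8 tested members was called at 0.5% against 0%, against 0.00639% of all genes, and 3 members had an unadjusted p under 0.05 with higher values at 0.5% (7.14% of all genes, 3.26% upward). At 1.0% against 0% no member was called, no gene at all was called (0%) and no member had an unadjusted p under 0.05 (3.18% of all genes, 1.76% upward). At 2.5% against 0% no member was called, where 17 of all genes (0.109%) were. Without adjustment, 4 members had a p under 0.05 at 2.5%, all of them UGT genes with higher values than at 0%, against 8.43% of all genes in either direction and 4.77% upward. DESeq2 and limma voom also called no member in any of the 3 comparisons. For no member were all libraries of a dose above all 0% libraries, which held for 0.23% of all genes at 0.5%, 0.134% at 1.0% and 0.454% at 2.5%.

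The estimates for the members were mostly positive. At 0.5% against 0% all 8 had a log2 change above 0 (49.2% of all genes), with a median of 0.23, and at 1.0% all 8 were above 0 (49.4% of all genes), with a median of 0.13. At 2.5% 7 of 8 were above 0 (46.9% of all genes), and their median was 0.25, against -0.01 for all genes. The 3 comparisons share the same 6 control libraries, so these counts are not independent of each other. The members were also chosen with earlier results of these data known, and they vary together to different degrees from mouse to mouse. Counts of members set beside all genes are therefore descriptions and no test. In the control group, 0% replicate 5 was the lowest of all 21 libraries for 6 of the 8 members, and it also had the highest small intestine marker level among the controls. The library with the highest marker level of all, 1.0% replicate 1 (5.86), was the lowest for 0 of the 8 members. Without 0% replicate 5 the median of the members was 0.16 at 0.5%, 0.05 at 1.0% and 0.17 at 2.5%. With all 6 marker-high libraries left out it was 0.22, 0.06 and 0.25 at the same doses. Leaving out 0% replicate 5 moved the estimate by over 1.5 times for 5 of the 8 members at 0.5%, for 6 at 1.0% and for 4 at 2.5%.

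**Figure D4:**
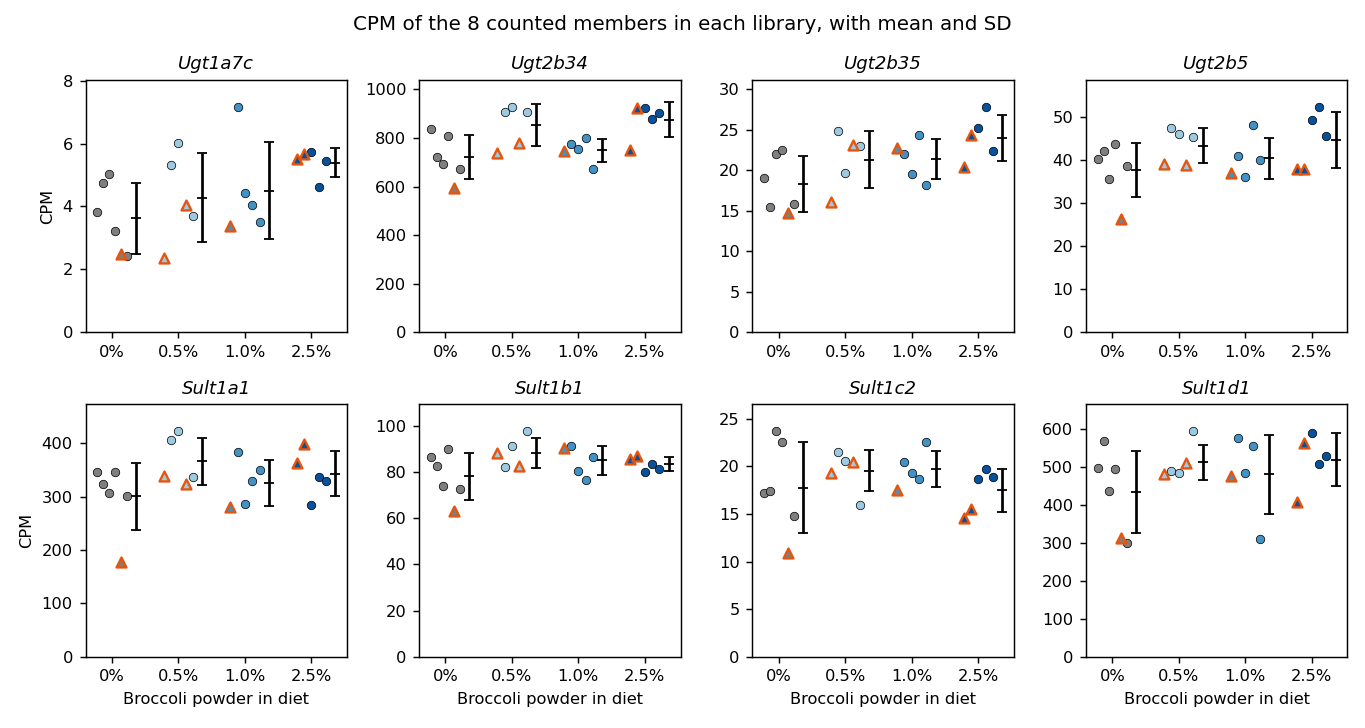
CPM of the 8 counted members in each library by broccoli powder in the diet, on linear axes from 0; orange triangles mark the 6 libraries high in small intestine markers, and the bar beside each group is the mean with its SD (n = 6 at 0%, n = 5 at each other dose). For each member the libraries of 2.5% overlap those of 0%, and 0% replicate 5, the triangle of the 0% group, is the lowest of its group in 6 of the 8 panels.

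Ugt1a7c had the largest estimate among the members at 2.5%. It stood at 5.51, 5.67, 5.72, 4.61 and 5.45 CPM in the 5 libraries at 2.5%, against a lowest, median and highest of 2.41, 3.52 and 5.02 CPM in the 6 at 0%. At 0.5% its values were 2.36, 5.32, 6.01, 4.03 and 3.69 CPM, and at 1.0% they were 3.37, 7.17, 4.42, 4.05 and 3.50 CPM. The 2.5% libraries lay close together and 4 of the 5 were above every control, while the libraries at 0.5% and 1.0% were spread widely and overlapped the controls. The log2 change at 2.5% was 0.58 ± 0.23 (SE), with a 95% interval of 0.10 to 1.05, and it did not pass (adjusted p = 0.495). These values rest on 73 to 308 reads a library. If those reads lie at the 3′ end of the locus, as the layout of the counts has it, the values stand for UGT1A transcripts with that end, whatever their start exon.

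Ugt2b34, with the most counts of any member, belongs to the UGT2B family, which acts on steroids, bile acids and drugs. At 2.5% it stood at 751, 925, 923, 878 and 901 CPM, against a lowest, median and highest of 595, 707 and 835 CPM at 0%. At 0.5% its values were 737, 906, 929, 781 and 907 CPM, and at 1.0% they were 746, 774, 753, 798 and 673 CPM. At 2.5% replicate 1 was the one library within the control range, and at 1.0% every library was within it. The log2 change was 0.24 ± 0.09 at 0.5% (adjusted p = 0.675), 0.05 ± 0.09 at 1.0% (adjusted p = 0.999) and 0.28 ± 0.09 at 2.5% (95% interval 0.10 to 0.46, adjusted p = 0.327). The change at 1.0% was 0.0042 without 0% replicate 5 and 0.0055 with the 6 marker-high libraries left out. The lowest adjusted p of any member under any setting tried was its 0.131, at 2.5% without replicate 1 of that diet.

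Ugt2b35, another UGT2B gene, lies near it on chromosome 5. At 2.5% it stood at 20.4, 24.3, 25.1, 27.8 and 22.4 CPM, against a lowest, median and highest of 14.7, 17.4 and 22.5 CPM at 0%. By dose the mean was 18.3 ± 3.43 CPM at 0%, 21.3 ± 3.50 at 0.5%, 21.3 ± 2.48 at 1.0% and 24.0 ± 2.83 at 2.5% (SD; n = 6 at 0% and n = 5 at each other dose). All 5 libraries at 2.5% were above the control mean and 3 of them above every control. The log2 change at 2.5% was 0.39 ± 0.12 (95% interval 0.14 to 0.65, adjusted p = 0.324).

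Ugt2b5 stood at 38.0, 37.9, 49.2, 52.4 and 45.5 CPM at 2.5%, against a lowest, median and highest of 26.3, 39.4 and 43.7 CPM at 0%. By dose the mean was 37.8 ± 6.27 CPM at 0%, 43.3 ± 4.02 at 0.5%, 40.4 ± 4.77 at 1.0% and 44.6 ± 6.54 at 2.5% (SD, same n). The pair of 2.5% libraries within the control range were replicates 1 and 2, both high in small intestine markers. The log2 change at 2.5% was 0.24 ± 0.11 (95% interval 0.01 to 0.47, adjusted p = 0.564), and it was 0.16 without 0% replicate 5.

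Of the 4 sulfotransferase members, Sult1d1 had the largest estimate at 2.5%. It stood at 408, 564, 591, 508 and 528 CPM at 2.5%, against a lowest, median and highest of 299, 466 and 569 CPM at 0%. At 1.0% replicate 5 stood at 310 CPM while the other 4 libraries stood between 476 and 576 CPM, and at 0.5% the libraries stood between 481 and 594 CPM. In 1.0% replicate 5 the large bowel marker Hoxb13 was at 5.42 CPM, against 0.0275 CPM or lower in every other library. Whether the 2 values are linked was not tested. The spread of Sult1d1 was wide in the control group, and the libraries of every dose overlapped it. The log2 change at 2.5% was 0.26 ± 0.16 (95% interval -0.08 to 0.59, adjusted p = 0.675), and it was 0.17 without 0% replicate 6. At 1.0% the log2 change was 0.14. It was 0.27 without 1.0% replicate 5 and 0.057 without 0% replicate 6.

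Sult1a1 stood at 363, 399, 285, 338 and 330 CPM at 2.5%, against a lowest, median and highest of 177, 316 and 347 CPM at 0%. The lowest control was replicate 5, and the other 5 controls lay between 302 and 347 CPM. The log2 change was 0.28 ± 0.13 at 0.5% (adjusted p = 0.685), 0.12 ± 0.13 at 1.0% (adjusted p = 0.999) and 0.19 ± 0.13 at 2.5% (adjusted p = 0.713). Without 0% replicate 5 it was 0.17 at 0.5%, 0.0023 at 1.0% and 0.075 at 2.5%. At 2.5% it was 0.13 without replicate 2 of that diet, and with all 6 marker-high libraries left out it was -0.04 (adjusted p = 0.916). With the marker level as a covariate it was 0.24 (adjusted p = 0.547), so the sign at 2.5% depended on whether those libraries were kept.

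Sult1b1 averaged 83.6 ± 2.91 CPM at 2.5% (SD, n = 5) and 78.2 ± 10.01 CPM at 0% (n = 6), and all 5 libraries at 2.5%, from 80.2 to 87.1 CPM, lay inside the control range of 63.2 to 89.9 CPM. Its log2 change was 0.10 ± 0.08 at 2.5% (95% interval -0.06 to 0.26, adjusted p = 0.749) and 0.18 ± 0.08 at 0.5% (adjusted p = 0.685), and at 2.5% it was 0.042 without 0% replicate 5 and 0.0086 with the 6 marker-high libraries left out (adjusted p = 0.980). Sult1c2 averaged 17.5 ± 2.28 CPM at 2.5% (n = 5) and 17.8 ± 4.77 CPM at 0% (n = 6). Its log2 change at 2.5% was -0.02 ± 0.14 (95% interval -0.32 to 0.27, adjusted p = 0.974), the lowest of the 8 members, and it was -0.13 without 0% replicate 5. Sult1b1 and Sult1c2 overlapped the controls at every dose.

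**Figure D5:**
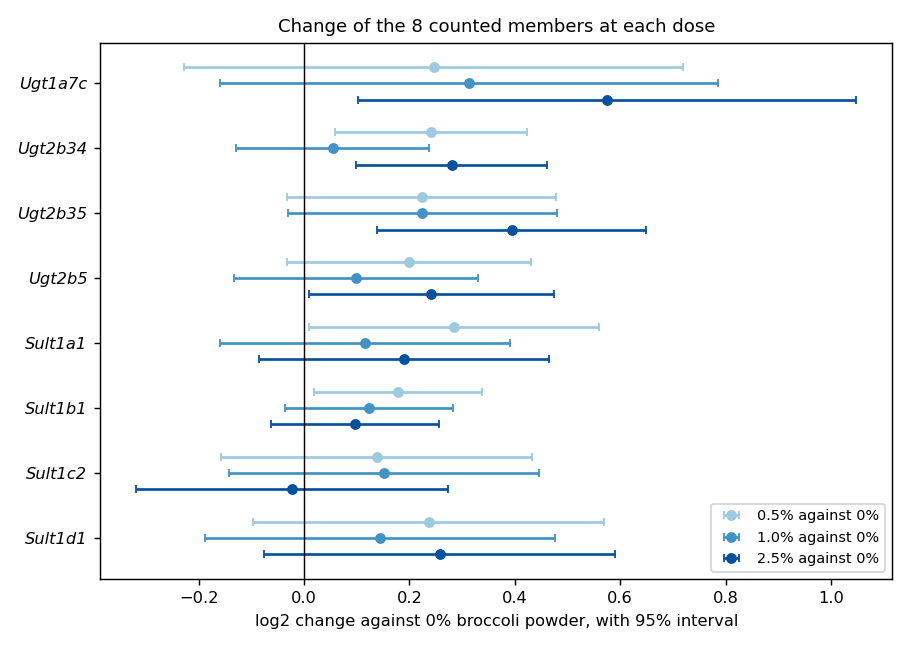
Log2 change of the 8 counted members against 0% at 0.5%, 1.0% and 2.5% broccoli powder, from edgeR's fit, with 95% intervals not adjusted for the number of genes. At 2.5% the 4 UGT genes lie between 0.24 and 0.58 with intervals above 0, the intervals of the 4 sulfotransferases span 0, and none of the 24 changes passed the adjustment.

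Across the doses, the slope of log2 expression per 1% of broccoli powder was tested in a separate fit, with 23 of all genes called (0.147%) and no member among them. The slope was 0.21 ± 0.08 for Ugt1a7c (adjusted p = 0.596), 0.14 ± 0.05 for Ugt2b35 (adjusted p = 0.440) and 0.09 ± 0.04 for Ugt2b34 (adjusted p = 0.634), and these 3 had an unadjusted p under 0.05, against 7.32% of all genes and 4.21% upward. The slopes of Sult1d1 and Ugt2b5 were both 0.08, those of Sult1a1 and Sult1b1 0.04 and 0.02, and that of Sult1c2 -0.03. Without 0% replicate 5 the slopes were 0.05 for Ugt2b5 and 0.0070 for Sult1a1, and without 0% replicate 6 that of Sult1d1 was 0.05. Ugt1a7c and Ugt2b35 were the members whose means followed the order of the doses. The Ugt1a7c means were 3.62 CPM at 0% (SD 1.11, n = 6), 4.28 at 0.5% (SD 1.43, n = 5), 4.50 at 1.0% (SD 1.55, n = 5) and 5.39 at 2.5% (SD 0.45, n = 5), and those of Ugt2b35 at 0.5% and 1.0% were nearly equal. For 5 of the other 6 members (Ugt2b34, Ugt2b5, Sult1a1, Sult1b1 and Sult1d1) the mean at 1.0% was lower than that at 0.5%.

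For the mean of the 3 broccoli diets against 0%, no gene was called by edgeR (0%), DESeq2 called 7 genes and limma voom 0, and no member was among them. Here 3 members had an unadjusted p under 0.05, against 6.58% of all genes and 3.07% upward, namely Ugt2b35 (log2 change 0.28 ± 0.10, adjusted p = 0.691), Ugt2b34 (0.19 ± 0.07, adjusted p = 0.691) and Sult1b1 (0.13 ± 0.06, adjusted p = 0.743). The value of Sult1b1 was 0.078 without 0% replicate 5 and 0.070 with the 6 marker-high libraries left out. All 8 changes were above 0 (48.9% of all genes), with a median of 0.19. In the test of any difference among the 4 diets 4 genes (0.0256%) and no member were called, with Ugt2b34 (adjusted p = 0.649) and Ugt2b35 (adjusted p = 0.762) at an unadjusted p under 0.05 (6.41% of all genes). The share of variance that lay between diets was 46.6% for Ugt2b34 and 12.5% for Sult1c2, and the other 6 members lay between these values. With 4 groups such a share is above 0 by chance alone. It was not adjusted for that and not compared with all genes.

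The members varied together to different degrees from mouse to mouse. Over the 21 libraries the highest correlation of log2 CPM between members was that of Ugt2b34 and Ugt2b5 (Pearson r = 0.76), and it was as high in the 15 libraries low in small intestine markers (0.76). The correlation of Ugt2b34 with Ugt2b35 was 0.72 and 0.65, and with Sult1d1 0.74 and 0.65. In contrast, the correlation of Ugt2b5 with Sult1c2 was 0.53 over 21 libraries and -0.06 over the 15, and that of Sult1a1 with Sult1d1 0.42 and 0.08. These points share their libraries, diet and scaling, and the values are descriptions. Between diets the ratio of Sult1d1 to Sult1a1 was similar, at 1.54 ± 0.35 (SD, n = 5) at 2.5% and 1.47 ± 0.28 (n = 6) at 0%.

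Among 13738 genes whose mean reached 1 CPM, the one most like Sult1d1 over the 21 libraries was Nbeal1 (Pearson r = 0.91, Spearman rho = 0.76), and that most like Sult1a1 was Gal3st2c (0.90 and 0.88). Next for Sult1a1 came Sgf29, the gene that overlaps it on the opposite strand (0.87 and 0.69), and whether reads of one were counted for the other was not tested. The most similar gene was Trak2 for Ugt2b34 (r = 0.88), Irak2 for Sult1b1 (0.86), Slc16a9 for Ugt2b5 (0.85), Vav3 for Ugt2b35 (0.80), Prr5l for Sult1c2 (0.78) and Ing3 for Ugt1a7c (0.78). Each is the highest of 13738 genes, so it is high in part because it was picked. Over the 15 libraries low in small intestine markers, r was 0.91 for Nbeal1, 0.78 for Gal3st2c, 0.85 for Trak2 and 0.77 for Irak2. In the same libraries it was 0.77 for Slc16a9, 0.80 for Vav3, 0.67 for Prr5l and 0.83 for Ing3.

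Promoters of the 10 genes were matched by symbol in RefSeq (GRCm38.p6), as 300 bases from 250 before to 50 after each start, with 11 promoters since Sult1b1 has more than 1 start. They were searched on both strands for the xenobiotic response element core GCGTG, bound by the aryl hydrocarbon receptor, the antioxidant response element core TGACNNNGC, bound by NRF2, and the letters GTTAAT of an HNF1 site. GCGTG was found for 2 of the 10 genes, Sult1b1 and Sult1d1, and it occurs in 32.4% of 32851 promoters of the same length. TGACNNNGC was found for 0 of the 10 and occurs in 12.4% of them. GTTAAT was found for 4, Ugt1a1, Ugt1a6a, Sult1a1 and Sult1d1, and occurs in 7.10%. The promoters of Sult1d1 (chr5:87568957-87569256, minus strand) and Sult1a1 (chr7:126676369-126676668, minus strand) are shown as those of the pair with the highest level per length, with GTTAAT in capitals.
Sult1d1: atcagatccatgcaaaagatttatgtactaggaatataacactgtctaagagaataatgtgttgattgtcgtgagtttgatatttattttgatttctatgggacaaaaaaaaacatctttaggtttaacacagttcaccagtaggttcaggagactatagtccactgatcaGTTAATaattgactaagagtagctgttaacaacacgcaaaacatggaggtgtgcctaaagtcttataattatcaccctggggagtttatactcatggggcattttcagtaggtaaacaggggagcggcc
Sult1a1: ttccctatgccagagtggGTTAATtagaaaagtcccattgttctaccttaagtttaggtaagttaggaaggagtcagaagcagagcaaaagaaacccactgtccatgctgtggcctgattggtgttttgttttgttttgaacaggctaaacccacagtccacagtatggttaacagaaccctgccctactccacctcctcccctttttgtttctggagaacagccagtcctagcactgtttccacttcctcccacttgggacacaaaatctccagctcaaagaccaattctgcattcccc
The letters lie farther from the start in Sult1a1 than in Sult1d1. These matches are letters in a window and no measure of binding.

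Genes that supply or follow the conjugation reactions were read from lists. The lists too were chosen with earlier results of these data known, so counts of their genes are descriptions. Of 6 genes that make or carry UDP-glucuronic acid none was called at 2.5% against 0% (0.109% of all genes were). All 6 were above 0 (46.9% of all genes), with a median log2 change of 0.15. The 3 with the lowest p of the slope were Pgm2 (0.30 ± 0.12, adjusted p = 0.509), Slc35d1, which carries UDP-glucuronic acid into the endoplasmic reticulum (0.18 ± 0.08, adjusted p = 0.546), and Ugp2, which makes UDP-glucose (0.13 ± 0.08, adjusted p = 0.690). Without 0% replicate 5 Slc35d1 was at 0.12 and Ugp2 at 0.066. Of 10 genes for sulfate, PAPS and its product PAP 9 were tested. None was called (0.109% of all genes were) and 7 were above 0 (46.9% of all genes), with a median of 0.06. Slc26a3, an anion exchanger of the large bowel, had a log2 change of 0.33 ± 0.13 (adjusted p = 0.484), which was 0.090 with the 6 marker-high libraries left out, and Bpnt1 and Impad1, which break down PAP, had changes of 0.18 ± 0.08 (adjusted p = 0.533) and 0.17 ± 0.10 (adjusted p = 0.632). The PAPS synthase gene Papss2 was at 3250 ± 321 CPM at 2.5% (SD, n = 5) and 2752 ± 521 CPM at 0% (n = 6), far above its relative Papss1 in counts.

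Enzymes that remove the conjugates did not pass either, with 0 of 6 tested genes called (0.109% of all genes) and 3 above 0 (46.9% of all genes). They include the glucuronidase gene Gusb (-0.06 ± 0.07, adjusted p = 0.838) and the arylsulfatase genes Arsa (-0.20 ± 0.11, adjusted p = 0.620) and Arsg (0.04 ± 0.12, adjusted p = 0.944). Of 6 efflux transporters 0 were called (0.109% of all genes) and all 6 were above 0 (46.9% of all genes), with a median of 0.13. Among them were Abcg2 (0.23 ± 0.08, adjusted p = 0.387), Abcb1a (0.24 ± 0.14, adjusted p = 0.660) and Abcc1 (0.14 ± 0.08, adjusted p = 0.632). These transporters carry drugs and conjugates out of cells.

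Among 16 transcriptional regulators 1 was called at 2.5%, where 0.109% of all genes were. It was Ahrr, which is switched on by the aryl hydrocarbon receptor and represses it in turn. Ahrr averaged 4.42 ± 1.06 CPM at 2.5% (SD, n = 5) and 2.19 ± 0.52 CPM at 0% (n = 6), a log2 change of 1.01 ± 0.20 (adjusted p = 0.0444). The call was narrow, and it held in 9 of 31 alternative fits, 4 of them fits without 1 library; its adjusted p was 0.0869 with all 6 marker-high libraries left out. The receptor partner Arnt had a log2 change of 0.13 ± 0.05 (adjusted p = 0.507) and Hnf4a, which drives intestinal and hepatic genes, of 0.16 ± 0.08 (adjusted p = 0.609). Of 10 reporter genes of the aryl hydrocarbon receptor and NRF2 none was called (0.109% of all genes were). Of these, 8 were above 0 (46.9% of all genes), with a median of 0.15. Cyp1a1 had a log2 change of 2.27 ± 0.61 (adjusted p = 0.231), Tiparp by 0.31 ± 0.12 (adjusted p = 0.490) and the NRF2 target Nqo1 by 0.27 ± 0.11 (adjusted p = 0.496). Tiparp was called in 1 of 31 alternative fits, the one with the 6 marker-high libraries left out, where its log2 change was 0.51 (adjusted p = 0.0454).

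Of the other UGT and SULT genes with at least 1 CPM none was called at 2.5% (0.109% of all genes were). Sult6b1 had a log2 change of 0.42 ± 0.16 (adjusted p = 0.453), Sult2b1 by 0.31 ± 0.17 (adjusted p = 0.634), Ugt8a by 0.06 ± 0.21 (adjusted p = 0.955), Ugt2b36 by 0.02 ± 0.14 (adjusted p = 0.975), Sult4a1 by -0.29 ± 0.27 (adjusted p = 0.788) and Sult5a1 by -0.32 ± 0.31 (adjusted p = 0.794). When 1 library was left out, Sult4a1 ranged from -0.54 to -0.12 and Sult5a1 from -0.49 to -0.16. Ugt2b36 stood at 4.89 ± 0.73 CPM at 2.5% (SD, n = 5) and 4.82 ± 0.59 CPM at 0% (n = 6).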

How the data were processed

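Per the labels' protocols, cecum RNA went into the Illumina Stranded mRNA Prep kit. Values are raw counts in a single table deposited by the authors, with a column per library. Build mm10 comes from the submitters' processing notes. For the aligner, the counting tool and its strand setting, the answer is not given in the sources used here. Of 25361 identifiers, 25268 were found in GENCODE M21, which gave names, spans and exons.

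The test on counts was that of edgeR 4.0.16, run in R 4.3.3 (TMM, filterByExpr by diet with a count minimum of 10, robust quasi-likelihood fit of all 21 libraries, two-sided), and 15652 genes passed. Unless another tool is named, an adjusted p comes from it, after Benjamini-Hochberg adjustment across those genes. CPM use library totals times TMM factors, and log2 CPM for marker lists and correlations a prior count of 2. Alternatives were RLE and library-total scaling, no filter, DESeq2 1.42.0, limma 3.58.1 voom, fits of only the diets compared, dose as rank, fits without or adjusted for small intestine or epithelial markers, fits without animals numbered above 70, and leaving out each library. The animals numbered above 70 were 76 and 77 at 0.5% and 80 at 1.0%, the last being 1.0% replicate 5. The code was checked on simulated data.

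Groups follow the diet in the labels. Replicate numbers follow accession order and pair no samples. Animals are numbered in the labels and were taken as separate mice. Between libraries of 1 diet, chi-square per degree of freedom was 15.5 or more, so none agreed within sampling noise. Library totals lay between 28514263 and 42687431 (0%), between 35057688 and 50757142 (0.5%), between 37327202 and 58594569 (1.0%) and between 33132637 and 39675518 (2.5%). The floor of 3 counts covers counting error only.

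The members and the gene lists were chosen with earlier results of these data known. All members are named in every comparison. Of other lists, the genes named are those called, UGT or SULT genes with at least 1 CPM, and up to 3 genes per list with the lowest p of the slope. The genes most like a member are those with the highest Pearson r. Papss2, Sult1e1, Ugt2b1, Car1, Fabp6, Defa24 and Hoxb13 were named after their values were seen.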

Additional observations from a re-analysis of the deposited data

Results flagged for a closer look

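Of 32 sets of values (8 counted members in 4 diets), 5 held a library whose gap to its nearest neighbour passed Dixon's 95% limit, and chance flags about 1 in 20 sets. Ugt1a7c stood at 7.17 CPM in 1.0% replicate 2, against 4.42 CPM in the next library of that diet. Ugt1a7c stood at 4.61 CPM in 2.5% replicate 4, the lowest of 5 libraries that otherwise lay between 5.45 and 5.72 CPM. Ugt2b34 stood at 751 CPM in 2.5% replicate 1, against 878 CPM or more in the other 4. Sult1a1 stood at 177 CPM in 0% replicate 5, against 302 CPM or more in the other 5 controls. Sult1d1 stood at 594 CPM in 0.5% replicate 5, against 512 CPM in the next library. The Sult1a1 and Ugt2b34 values lie in libraries high in small intestine markers, and the other 3 do not. Without 1.0% replicate 2 the log2 change of Ugt1a7c at 1.0% was 0.08, against 0.31 with it.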

How the results depend on the processing

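Over 32 alternative settings and 6 comparisons no member was called, DESeq2 and limma voom included, and the lowest adjusted p was 0.131. Of 1232 values of members, 14 had the opposite sign. With the 6 marker-high libraries (small intestine) left out, the log2 change of Sult1a1 at 2.5% was -0.036, and the slopes were -0.037 for Sult1a1, -0.0092 for Sult1b1 and 0.00091 for Sult1c2. For Sult1c2 at 2.5% it was 0.017 with limma voom, 0.017 with small intestine and 0.011 with epithelial markers as covariate, and -0.13 to 0.077 when 1 library was left out. Leaving out 1 library also gave -0.020 to 0.19 for Sult1c2 in the mean of the 3 diets, -0.00012 to 0.028 for the slope of Sult1b1 and -0.060 to 0.0038 for that of Sult1c2. Of other genes at 2.5%, Ugt2b36 was at -0.031 and Arsg at -0.011 with library totals, and Ugt8a at -0.24 with the marker-high libraries left out. Leaving out 1 library gave -0.061 to 0.078 for Ugt2b36, -0.066 to 0.16 for Ugt8a and -0.085 to 0.11 for Arsg. It also moved, by over 1.5 times, Abcb1a to 0.15 (without 0% replicate 5) and 0.37 (0% replicate 2), Impad1 to 0.099 and Arsa to -0.11 (0% replicate 6), and Gusb to between -0.11 and -0.021. Slc35d1 was at 0.077 and Hnf4a at 0.24 with the marker-high libraries left out, and Abcc1 was at 0.085, Arnt at 0.069, Hnf4a at 0.10 and Sult1b1 at 0.046 with library totals. The cause was not tested.

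Counts over all genes moved more. At 2.5% the 17 called genes (15 higher, 2 lower) became 7 (5 and 2) with library totals, 80 with DESeq2, 7 with limma voom, 0 with only the diets compared, 5 without animals numbered above 70, 121 with the marker-high libraries left out, and 0 to 56 when 1 library was left out. For the slope the 23 became 60 with DESeq2, 9 with limma voom, 0 with dose as rank, 15 and 10 with small intestine and epithelial markers as covariate, 13 without animals numbered above 70, 101 with the marker-high libraries left out, and 0 to 56 when 1 library was left out. In the test among the 4 diets the 4 became 68 with DESeq2, 2 with limma voom, 8 with epithelial markers as covariate, 0 without animals numbered above 70, 86 with the marker-high libraries left out, and 0 to 35 when 1 was left out. At 0.5% the 1 called gene became 0 to 2, and for the mean of the 3 diets DESeq2 called 7 genes against 0. Ahrr kept its call without 0% replicate 1, 0.5% replicate 1, 1.0% replicate 1 or 2.5% replicate 2 and lost it without each of the other 17 libraries, and its adjusted p ran from 0.000822 to 0.252. Ugt1a7c, with 73 to 308 reads a library, is the member that depth limits most. No paired analysis was possible because the labels number animals and no number is shared between diets.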
